A study of Mus musculus with 5 samples.

Results

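The heat shock protein chaperones described here are the genes Hspa1a, Hspa1b, Dnajb1, Hsph1, Hsp90aa1, Hspa8, Hspa4, Hspa5, Hspd1 and Hsp90ab1, read as every probe set whose gene symbol in the array's annotation is one of these 10 names. That gave 25 of the array's 45101 probe sets and 9 of the 18193 genes with a probe set of their own. Hsp90ab1 was listed for no probe set in the annotation used and is not analysed here. Signals came from Affymetrix mouse expression arrays hybridised with brain RNA, 1 array per sample and 5 in all. In 2 samples the RNA had been eluted from deiminated MA-Brent-1, in 2 from non-deiminated MA-Brent-1, and the last was the initial RNA with no binding step, called input below. MA-Brent-1 is an mRNA export factor of the REF/Aly family, and deimination converts arginines of the protein to citrulline. Binding was done in vitro, so the RNA had been taken out of its cells before it met the protein. In the sample titles the protein is MA-Brent-1 on deiminated replicate 1 and non-deiminated replicate 2, and REFP2 on deiminated replicate 2 and non-deiminated replicate 1. The mouse strain, age and number of animals are not given in the sources used here. A biological repeat is named in 1 title, and nothing else says that arrays of a group came from separate preparations, so the p-values may reflect technical spread alone. Sample numbers in some titles are not explained. Both deiminated titles share an ending that no other title has. Its meaning is not given, and whatever it marks cannot be told apart from deimination. The genes were chosen with earlier results of these data known and are treated as selected on their signals in bound against input RNA, so that contrast is given as values with no test.

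Heat shock proteins bind unfolded or partly folded proteins and release them again in cycles driven by ATP. HSP70 proteins (Hspa genes) do this together with J-domain partners such as Dnajb1, which stimulate their ATPase, and with HSP110 relatives such as Hsph1 and Hspa4, which exchange their nucleotide. HSP90 acts later on signalling proteins, and Hspd1 forms the folding chamber of mitochondria. Under heat or protein damage the factor HSF1 binds heat shock elements, arrays of the unit GAA in alternating orientation, and switches on the inducible genes. In neurons constitutive Hspa8 is abundant and also strips clathrin from vesicles. Here Hspa1a, Hspa1b, Dnajb1, Hsph1 and Hsp90aa1 were taken as stress-inducible and the others as constitutive. Of the inducible genes only Hspa1a and Hspa1b are known to lack introns, so the inducible class is not an intronless class. Hspa5 is constitutive in the endoplasmic reticulum and is induced there by a separate stress response.

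Sequence around the gene starts was read from RefSeq windows of build GRCm38.p6, which run from 250 bases before to 50 bases after a start. Of the 10 genes, 7 had such a window. Hspa1a (chr17:34969359-34972156) and Hspa1b (chr17:34956429-34959238) are neighbouring copies on the minus strand. Their upstream sequences are shown because they are so alike. Array probes read transcripts and no probe sequences were compared, so this likeness does not show whether the signals of the pair mix. Over the 300 bases of both windows 296 were identical and 4 differed. Capitals mark the letters GAANNTTC, which read the same on both strands and form a pair of heat shock units.
Hspa1a, chr17:34972157-34972406, minus strand: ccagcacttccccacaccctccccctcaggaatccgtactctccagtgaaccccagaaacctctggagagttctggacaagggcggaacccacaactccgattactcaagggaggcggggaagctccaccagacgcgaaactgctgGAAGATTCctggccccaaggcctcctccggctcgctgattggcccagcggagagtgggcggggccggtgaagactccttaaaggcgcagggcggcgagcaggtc
Hspa1b, chr17:34959239-34959488, minus strand: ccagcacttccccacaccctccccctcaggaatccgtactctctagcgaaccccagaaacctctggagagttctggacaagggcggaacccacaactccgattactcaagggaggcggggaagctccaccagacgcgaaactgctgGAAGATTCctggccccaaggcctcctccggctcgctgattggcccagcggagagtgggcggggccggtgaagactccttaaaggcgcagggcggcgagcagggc

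The same letters, or TTCNNGAA, which also read alike on both strands, were found in a window of 4 of the 7 genes, against 17.0% of all 27025 genes with a window. Counted by window, they were in 5 of the 10 windows of these genes and in 15.1% of all 32851 windows. The 4 were Hspa1a, Hspa1b, Hsph1 and Hspd1. They are shown because they cross the classes, since Hspd1 was counted as constitutive and held the longest run. In Hspd1 overlapping matches joined into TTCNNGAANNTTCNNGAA, which 0.0152% of all windows held. Hsph1 held a second match, not shown, that began 36 bases after its more upstream start and joined 3 units. Those letters, GAANNTTCNNGAA on either strand, were in 0.603% of windows, among them that of Hspd1. Capitals mark the matches, and the Hspa5 stretch shows in capitals the letters of the endoplasmic reticulum stress element, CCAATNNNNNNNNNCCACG, searched on both strands and held by 0.119% of windows. It overlaps no GAANNTTC or TTCNNGAA in that window.
Hsph1, chr5:149636351-149636380, minus strand: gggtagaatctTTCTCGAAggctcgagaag
Hspd1, chr1:55088053-55088082, minus strand: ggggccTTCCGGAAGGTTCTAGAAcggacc
Hspa5, chr2:34771990-34772089, plus strand: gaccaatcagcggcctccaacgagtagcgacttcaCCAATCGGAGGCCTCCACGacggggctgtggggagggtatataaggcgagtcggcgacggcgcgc
The windows of Dnajb1 and Hspa4 held neither GAANNTTC nor TTCNNGAA. A match describes letters in a window and no binding was measured.

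The input array stood apart from the bound arrays before any gene was considered. Its median signal was 102, against 29.9 to 41.5 on the bound arrays, and its hybridisation controls averaged 17.04 on the log2 scale against 10.08 to 13.04. Across the 27022 probe sets past the signal filter its correlation with the bound arrays was 0.321 to 0.390, while bound arrays correlated at 0.897 to 0.971 with each other, which describes probe sets and not replicates. The 3′ to 5′ signal ratio of the Gapdh control probe sets, a sign of RNA or label length, was 21.9 and 31.9 in deiminated-bound RNA, 31.7 and 17.4 in non-deiminated-bound RNA and 2.71 in input RNA. For the Actb control probe sets it was 51.7 and 45.2 in deiminated-bound RNA, 29.8 and 55.6 in non-deiminated-bound RNA and 234 in input RNA, so the input was lower by Gapdh and higher by Actb. Brain markers were read as signals with no detection calls, so their presence was not assessed. The lowest marker signal was 1.72, for an endothelial marker on deiminated replicate 2, and the lowest neuronal one was 8.56 on the input array. The 5 neuronal markers summed to 10234 and 10788 in deiminated-bound RNA, 9833 and 10033 in non-deiminated-bound RNA and 2298 in input RNA, with 4 of 5 at least 2-fold higher on all bound arrays. The 4 measured oligodendrocyte markers summed to 28810 and 56384 in deiminated-bound RNA, 22671 and 67775 in non-deiminated-bound RNA and 48645 in input RNA. The 5 astrocyte markers summed to 12619 to 17479 on the bound arrays and 5477 on the input array, and the 5 microglial markers to 4506 to 5757 on the bound arrays and 3534 on the input array. The 4 endothelial markers summed to 730 to 1003 on the bound arrays and 761 on the input array, and the 2 red cell markers to 91.2 to 155 on the bound arrays and 351 on the input array. At least 2-fold higher on all bound arrays were 3 of 5 astrocyte, 2 of 4 oligodendrocyte and 1 of 5 microglial markers. The same held for 0 of 4 endothelial and 1 of 2 red cell markers, against 19.8% of all genes. At least 2-fold lower were 1 endothelial and 1 red cell marker, against 30.9% of all genes. The part of these shifts and ratios in the results below, probe sets of 1 gene that differ in direction included, was not tested. The RNA had left its cells before binding, so a marker difference between bound and input arrays gives no difference in cell number.

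For 8 of the 9 genes the bound arrays, all 4 of them, read at least 2-fold above the input array in the representative probe set, the one with the highest mean log2 signal over the 5 arrays. With the mean over all probe sets of a gene in its place, the count was 5 of 9. The share of all genes by that mean is not given here. Among all 18193 genes the share by representative probe set was 19.8%. Among the 3092 genes whose representative lay in the brightest 10% of probe sets by mean log2 signal, as 8 of the 9 did, it was 49.2%. Since 4 of the 5 arrays in these means are bound, both choices lean toward probe sets that read high on the bound arrays. No heat shock gene was at least 2-fold lower on all bound arrays, against 30.9% of all genes and 3.72% of those in the brightest 10%. The median difference over the 9 genes was 2.83 on the log2 scale, against -0.50 over all genes and 1.30 over the genes of the brightest 10%. The sizes depended on the scaling between arrays. Median centring moved the median of all genes by 1.46 and that of the 9 genes to 4.29. Quantile normalisation moved all genes by 0.69, with the 9 genes at a median of 2.69, and cyclic loess moved all genes by 0.31, with the 9 genes at 1.78. Scaling to the hybridisation controls moved all genes by 5.46. All differences are on the scale of log2(signal + 4.18), and no conclusion is drawn from them since this contrast was known when the genes were proposed.

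**Figure D1:**
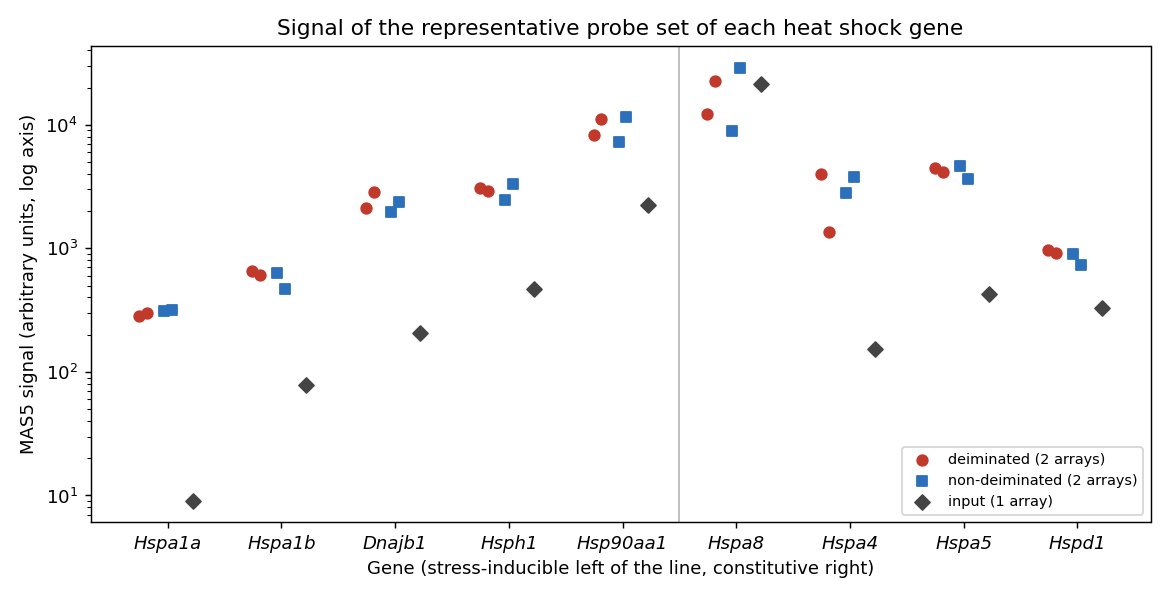
MAS5 signal (log axis) of the representative probe set of the 9 measured heat shock genes on the deiminated, non-deiminated and input arrays, 1 point per array. Signals compare arrays within a gene and not genes with each other. The input point lies under all bound points for 8 genes, and for Hspa8 it lies among them.

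Hspa1a, the stress-inducible cytosolic HSP70, had signals of 282 and 297 in deiminated-bound RNA, 312 and 314 in non-deiminated-bound RNA and 9.09 in input RNA. The 4 bound arrays lay close together and far over the input. The log2 difference from input was 4.47 for deiminated and 4.58 for non-deiminated RNA (n = 2 each against 1 array), and the mean of 4.52 had an SD of 0.07 over the 4 bound arrays. Since the input signal was near the pseudocount, the size depends on it, with 4.90 at the smaller pseudocount of 1.05 and 3.62 at the larger of 16.7. It was the widest of the 9 gaps at the main pseudocount, while at the larger one Hspa4, at 4.03, was wider.

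Its neighbour Hspa1b had 656 and 608 in deiminated-bound RNA, 631 and 467 in non-deiminated-bound RNA and 78.8 in input RNA in 1452318_a_at. Non-deiminated replicate 2 was the lowest bound array, and all were over the input, with differences from input of 2.94 for deiminated and 2.72 for non-deiminated RNA. In 1427127_x_at the signals were 72.1 and 71.9 in deiminated-bound RNA, 131 and 39.7 in non-deiminated-bound RNA and 3.67 in input RNA. In 1427126_at, which lay under the signal filter, they were 26.7 and 30.7 in deiminated-bound RNA, 53.5 and 14.0 in non-deiminated-bound RNA and 5.95 in input RNA. In both, non-deiminated replicate 1 was highest and replicate 2 lowest, so the bound group that spread widest was the non-deiminated one. An ending of _x_at marks probes shared with other sequences. The Hspa1a and Hspa1b signals may overlap, which was not tested.

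Dnajb1, the J-domain partner that loads substrates onto HSP70, had 2139 and 2866 in deiminated-bound RNA, 1981 and 2389 in non-deiminated-bound RNA and 207 in input RNA in 1416755_at. Bound arrays exceeded the input by 3.55 for deiminated and 3.37 for non-deiminated RNA. The other Dnajb1 probe set, 1416756_at, had 63.7 and 71.8 in deiminated-bound RNA, 57.1 and 108 in non-deiminated-bound RNA and 41.7 in input RNA. There the gap was 0.64 for deiminated and 0.85 for non-deiminated RNA, so the 2 probe sets had the same direction but very different sizes.

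Hsph1, an HSP110 nucleotide exchange factor for HSP70, had 3071 and 2929 in deiminated-bound RNA, 2474 and 3335 in non-deiminated-bound RNA and 470 in input RNA in 1425993_a_at. The differences from input were 2.66 for deiminated and 2.60 for non-deiminated RNA. In 1423566_a_at the signals were 178 and 137 in deiminated-bound RNA, 237 and 172 in non-deiminated-bound RNA and 105 in input RNA, with differences of 0.55 for deiminated and 0.92 for non-deiminated RNA. As for Dnajb1, the direction was shared and the size was not.

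Hsp90aa1, the inducible cytosolic HSP90, had 5 probe sets that split by direction. In 1426645_at, the representative, the signals were 8292 and 11078 in deiminated-bound RNA, 7295 and 11555 in non-deiminated-bound RNA and 2259 in input RNA. That gave differences from input of 2.08 for deiminated and 2.02 for non-deiminated RNA. By the same measure 1437497_a_at had 3.37 for deiminated and 3.28 for non-deiminated RNA, and 1438902_a_at had 3.22 for deiminated and 3.20 for non-deiminated RNA. The last 2 probe sets, 1441827_x_at and 1433251_at, lay under the signal filter, with bound signals of 1.98 to 39.8 and input signals of 64.1 and 49.8. They read lower on the bound arrays, by a mean log2 difference of -2.06 and -2.05.

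Hspa8, the constitutive cytosolic HSP70 of neurons, was the exception among the 9 genes by its representative probe set, which ends in _x_at. With _s_at and _x_at probe sets left out, Hspa8 was at 2.19 and all 9 genes were at least 2-fold higher. The representative, 1455789_x_at, lay at the 99.88th to 99.97th percentile of signal on the 5 arrays. It had 12226 and 22542 in deiminated-bound RNA, 8858 and 29017 in non-deiminated-bound RNA and 21387 in input RNA. The input lay within the range of the bound arrays, with differences of -0.37 for deiminated and -0.42 for non-deiminated RNA. The mean difference of -0.39 turned to 0.57 after quantile normalisation, 1.07 after median centring and 5.07 after hybridisation control scaling, and was -2.00 after cyclic loess. By contrast 1420623_x_at had 2577 and 2097 in deiminated-bound RNA, 2523 and 2833 in non-deiminated-bound RNA and 489 in input RNA, with differences of 2.24 for deiminated and 2.44 for non-deiminated RNA. The probe set 1420622_a_at had 1682 and 1801 in deiminated-bound RNA, 1564 and 2804 in non-deiminated-bound RNA and 414 in input RNA, with differences of 2.06 for deiminated and 2.33 for non-deiminated RNA. In 1431182_at the order turned round, at 21.9 and 24.4 in deiminated-bound RNA, 26.1 and 26.7 in non-deiminated-bound RNA and 348 in input RNA, which made the input 12.2-fold higher than the mean bound level. The 4 probe sets of this gene thus gave no single direction against the input.

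Hspa4, an HSP110 relative that acts with HSP70, had 3993 and 1367 in deiminated-bound RNA, 2788 and 3805 in non-deiminated-bound RNA and 153 in input RNA in 1435194_at. Deiminated replicate 2 was the low bound array, and the differences from input were 3.90 for deiminated and 4.38 for non-deiminated RNA. In 1416146_at the signals were 205 and 191 in deiminated-bound RNA, 225 and 220 in non-deiminated-bound RNA and 20.9 in input RNA, with differences of 3.01 for deiminated and 3.18 for non-deiminated RNA. The other 2 Hspa4 probe sets read lower on the bound arrays, by a mean of -0.86 in 1440575_at and of -2.45 in 1416147_at, which was under the filter.

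Hspa5, the HSP70 of the endoplasmic reticulum also known as BiP, had 4449 and 4111 in deiminated-bound RNA, 4654 and 3621 in non-deiminated-bound RNA and 425 in input RNA in 1416064_a_at. The differences from input were 3.32 for deiminated and 3.26 for non-deiminated RNA, and in 1427464_s_at they were 1.02 for deiminated and 1.09 for non-deiminated RNA. In 1447824_x_at the signals were 578 and 590 in deiminated-bound RNA, 685 and 1038 in non-deiminated-bound RNA and 1123 in input RNA, so that all bound arrays were lower. Hspd1, the mitochondrial chaperonin HSP60, had 966 and 918 in deiminated-bound RNA, 897 and 730 in non-deiminated-bound RNA and 329 in input RNA in its only probe set. Its differences from input were 1.50 for deiminated and 1.29 for non-deiminated RNA, the smallest of the 8 genes that were higher. The mean of 1.40 was 2.85 after median centring and 0.077 after cyclic loess, where Hsp90aa1 had 0.44.

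**Figure D2:**
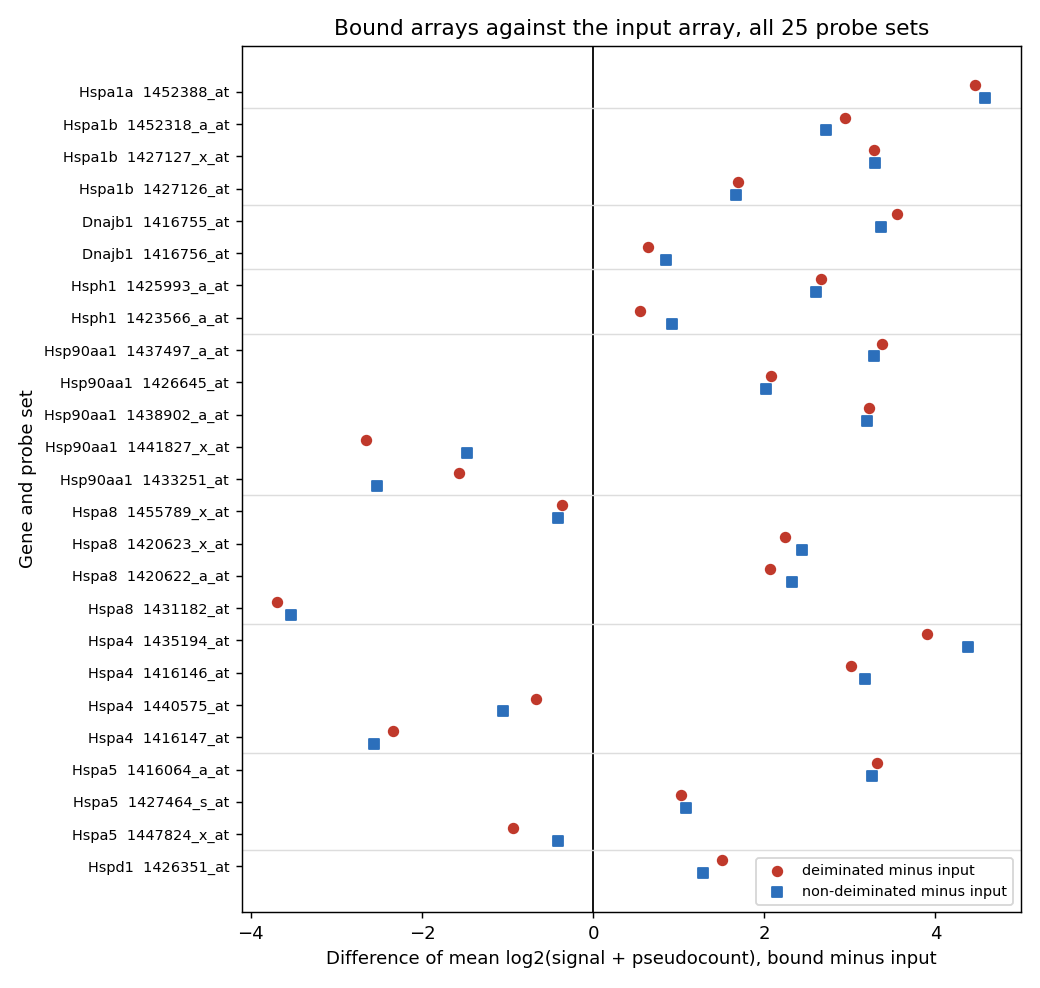
Difference in mean log2(signal + 4.18) between the deiminated (circles) or non-deiminated (squares) arrays and the input array, for each of the 25 probe sets by gene. Points right of 0 were higher on the bound arrays, and Hsp90aa1, Hspa8, Hspa4 and Hspa5 have probe sets on both sides.

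Over all 25 probe sets, 14 were at least 2-fold higher on all 4 bound arrays and 3 at least 2-fold lower, against 14.9% and 37.1% of all 45037 non-control probe sets. The 3 lower ones were Hspa8 1431182_at, Hspa4 1416147_at and Hsp90aa1 1433251_at. The inducible genes had a median difference from input of 2.83 over 5 genes and the constitutive ones 2.34 over 4 genes. The gap between the medians was 0.49, and each bound array set singly against the input gave 0.53 and 0.59 for the deiminated and 0.50 and 0.71 for the non-deiminated arrays. Within the classes the genes ran from 2.05 for Hsp90aa1 to 4.52 for Hspa1a and from -0.39 for Hspa8 to 4.14 for Hspa4. The classes thus overlapped from 2.05 to 4.14, while Hspa8 and Hspd1, at 1.40, lay under every inducible gene. The gap ran from 0.0864, with probe sets ending in _s_at or _x_at left out, to 1.80 after quantile normalisation, and so it depended on which Hspa8 probe set was used and on the scaling.

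The other genes of the chaperone network numbered 60 in the list, of which 57 had a probe set and 54 passed the filter. Ptges3, Ppid and Hsf1 had no probe set listed. In their representatives 26 of 57 were at least 2-fold higher on all bound arrays and 7 at least 2-fold lower, against the 19.8% and 30.9% of all genes. Among genes of the brightest 10%, to which some of the 57 belong, the shares were 49.2% and 3.72%. The median difference over the 57 was 1.21, against 1.30 over the genes of the brightest 10%. Among J-domain proteins 11 of 15 were higher and 1 lower, with Dnaja1 at 5022 and 4303 in deiminated-bound RNA, 3769 and 5427 in non-deiminated-bound RNA and 1321 in input RNA. The synaptic vesicle J-protein Dnajc5 had a mean difference of 2.71. Of the other HSP70 family genes 3 of 9 were higher and 1 lower, with the mitochondrial Hspa9 at 2.32 and the endoplasmic reticulum protein Hyou1 at 0.99. Neither gene of the remaining HSP90 family was past 2-fold on every array, with Hsp90b1 of the endoplasmic reticulum at 1.21 and the mitochondrial Trap1 at 0.77. Hspe1, which caps the Hspd1 chamber, had 824 and 850 in deiminated-bound RNA, 931 and 670 in non-deiminated-bound RNA and 196 in input RNA, and the mitochondrial exchange factor Grpel1 had a difference of 1.61. Co-chaperones had 8 of 18 higher and 1 lower, with the ubiquitin ligase Stub1 at 0.44 and the HSP90 cofactor Chordc1 at 2.52. Small heat shock proteins had 1 of 7 higher and 3 lower, with Cryab, the lens and glial crystallin, at 2.20 and Hspb8 at -1.52. Of the heat shock factors and their regulator, Hsbp1 had 2.01 and Hsf2 -3.35.

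Whether deimination changes which RNAs bind is the question of the next comparison, deiminated against non-deiminated, whose values the rule for choosing the genes does not name. Of the 25 probe sets 21 passed the filter, and limma called 0 of them, as it called 0% of the 27022 probe sets tested. Without non-deiminated replicate 1 it called 24 of the 27022, with 3082 at an unadjusted p under 0.05 against 356 on all arrays, and without non-deiminated replicate 2 it called 2. No heat shock probe set was among these calls. At an unadjusted p under 0.05 there were 0 of the 21 and 1.32% of all, with unadjusted p of 0.121 to 0.979 and an adjusted p of 0.9999 for each of the 21. The differences were positive in 10 and negative in 11. Over the 9 representatives the median was 0.062, against -0.0032 over the 13055 genes past the filter. Over the genes of the brightest 10%, where 8 of the 9 lay, it was 0.055, close to that of the heat shock genes. Of the 60 other chaperone genes limma also called 0 of the 54 that passed.

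The inducible genes had differences near 0 with intervals of about 2-fold either way. Hspa1a had -0.11 ± 0.36 (SE, n = 2 and 2), with a 95% interval of -0.90 to 0.68. Hspa1b had 0.22 (-0.47 to 0.90) and Dnajb1 0.19 (-0.51 to 0.88). Hsph1 had 0.06 (-0.65 to 0.78) and Hsp90aa1 0.06 (-0.89 to 1.01). Among the constitutive genes Hspa8 had 0.05 ± 0.65, with the widest interval of the 9 at -1.35 to 1.45. Hspa4 had -0.48 (-1.43 to 0.48), Hspa5 0.06 (-0.68 to 0.80) and Hspd1 0.22 (-0.43 to 0.87). For 6 of the 9 genes the interval lay within 2-fold, and for 10 of the 21 probe sets, where 24.2% of all tested probe sets and 72.5% of the brightest 10% did. The intervals of Hsp90aa1, Hspa8 and Hspa4 reached past 2-fold.

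**Figure D3:**
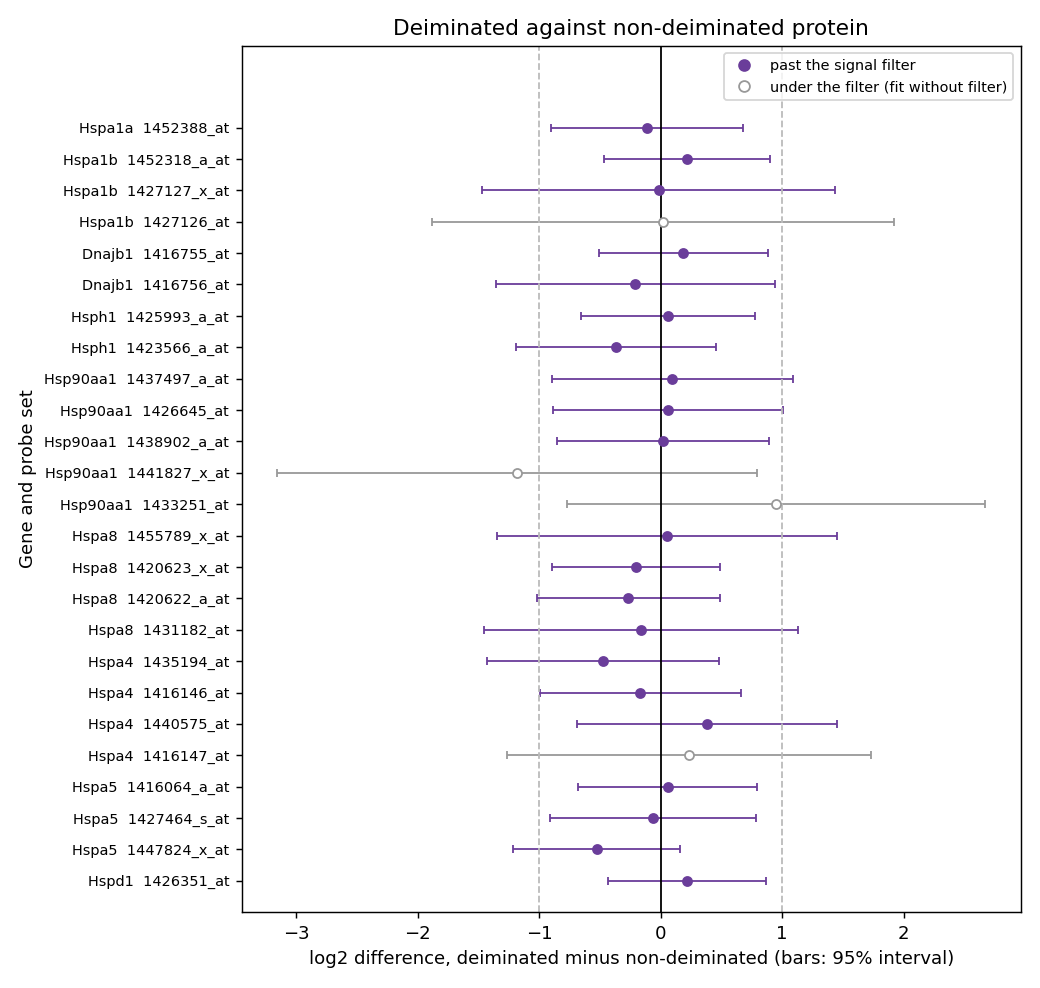
log2 difference between the deiminated and non-deiminated arrays for all 25 heat shock probe sets, with 95% intervals from limma. Dashed lines mark 2-fold. Every interval spans 0, and open points lay under the signal filter and come from the fit with no filter.

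The deiminated and non-deiminated arrays did not overlap in 5 of the 21 probe sets, against 24.1% of all tested. Hspd1 was higher on both deiminated arrays. The probe sets Hspa1a 1452388_at, Hspa4 1416146_at, Hspa8 1431182_at and Hspa5 1447824_x_at were lower on both. The lowest unadjusted p, 0.121 by limma, belonged to Hspa5 1447824_x_at, which had -0.53 (-1.22 to 0.16; adjusted p = 0.9999), while Hspa5 1416064_a_at had 0.06.

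Within each bound group 1 array had higher hybridisation controls. Their mean log2 signal was 12.60 on deiminated replicate 2 and 13.04 on non-deiminated replicate 2, against 10.59 on deiminated replicate 1 and 10.08 on non-deiminated replicate 1. Both arrays with higher controls exceeded both with lower controls in 9 of the 25 probe sets and lay under them in 5, near the 29.9% and 15.6% of all probe sets. Hspa8 1455789_x_at had the largest such gap among the representatives, a mean log2 difference of 1.30 between the higher and lower arrays, and Hsp90aa1 had 0.54 and Dnajb1 0.35. Hspa1b, at -0.27, and Hspa5, at -0.24, went the other way, and Hspa1a had 0.04. The part of the control level in these signals was not tested.

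Compared only between arrays of like control level, deiminated minus non-deiminated had the same sign at both levels in 4 of the 9 genes. Hspa1a had -0.14 at the lower and -0.08 at the higher level, Hspa1b 0.06 and 0.38, Dnajb1 0.11 and 0.26, and Hspd1 0.11 and 0.33. Hspa8 had 0.46 and -0.36, and Hspa4 had 0.52 and -1.47, so the sign turned in both. Between arrays with the same protein name in the title, Hspa8 had -1.25 for MA-Brent-1 and 1.35 for REFP2. The sign was shared by both names in 2 genes, Hspa1a at -0.15 and -0.07 and Hspd1 at 0.40 and 0.03. Both also kept their sign across control levels, which restates that their deiminated and non-deiminated arrays did not overlap. Neither count of shared signs has the share over all genes beside it, so neither sets these genes apart. Each of these differences compares single arrays.

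**Figure D4:**
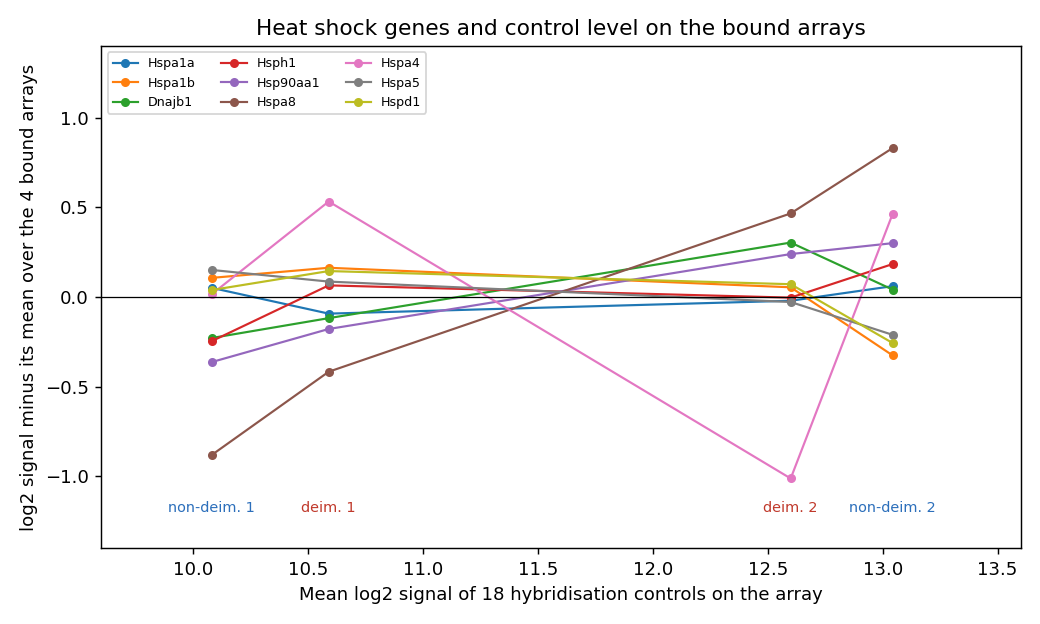
log2 signal of each representative probe set minus its mean over the 4 bound arrays, against the mean log2 signal of 18 hybridisation controls on that array. Hspa8 climbs across the 4 arrays and Hsp90aa1 follows it with smaller steps, Hspa1a stays near 0, and Hspa4 dips on deiminated replicate 2.

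Other genes had nearly the same profile over the 5 arrays as these chaperones. Likeness was the root mean square distance between log2 profiles after each gene's own mean was removed, over 13046 genes, with no test. Closest to Hspa1a were Senp7, a SUMO protease, at 0.0621, then Dus3l, Dtna, Clic4 and Cdc123 at up to 0.0833, where the median gene lay at 1.80. Senp7 had 267 and 250 in deiminated-bound RNA, 276 and 269 in non-deiminated-bound RNA and 6.98 in input RNA. Among the heat shock genes the nearest to Hspa1a was Dnajb1 at 0.467, and its neighbour Hspa1b lay at 0.710.

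Closest to Hspa8 was Cnp, an oligodendrocyte enzyme and 1 of the marker genes above, at 0.0451, followed by Cox5a, 4831440E17Rik, Slc35a2 and Clu at up to 0.112, where the median gene lay at 0.935. Cnp had 9132 and 16270 in deiminated-bound RNA, 6653 and 20135 in non-deiminated-bound RNA and 16094 in input RNA. The nearest other heat shock gene, Hspd1, lay at 1.01 from Hspa8, farther than the median gene. These distances share the same 5 arrays, and the input array carries much of the Hspa1a profile. For Hspa8 the input signal of 21387 lay within the bound range of 8858 to 29017. Its profile was mostly spread among the bound arrays, with 1.30 between those of higher and lower controls.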

How the data were processed

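The deposited table holds MAS5 signal intensity per probe set on a linear scale, per the submitters' processing notes. The sources used here give no software version. Each array's mean, with 2% trimmed at each end, was 150, so the authors' values were already scaled, and nothing more was normalised. Log2 was taken after adding a pseudocount of 4.18, the median of all values (41.8) divided by 10. The 64 control probe sets were left out. Probe sets with a mean log2 at or above the 40th percentile were tested, 27022 of 45037. Of the 45037, 34945 had 1 gene symbol, 932 several and 9160 none listed, and a gene was read from its probe set with the highest mean.

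limma 3.58.1 in R 4.3.3 (lmFit and eBayes with trend) fitted the 3 group means over the 5 arrays, with Benjamini-Hochberg adjusted p under 0.05 as threshold. The spread of the single input array was taken to equal that of the bound ones. Detection calls were not used, and the number of arrays limits the precision. Alternatives covered the pseudocount, filter, scaling, variance model, blocks, choice of probe set and each left-out array.

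The genes and lists were chosen with earlier results of these data known. Named genes are all heat shock members, the 2 of each chaperone role with the highest mean signal, and the 5 genes closest in profile to Hspa1a and to Hspa8. Start windows are RefSeq's, build GRCm38.p6.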

Additional observations from a re-analysis of the deposited data

How the results depend on the processing

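limma called no heat shock probe set for deimination under the 13 alternatives that keep all bound arrays. It called none under the 4 that leave out 1 bound array, which say little of stability, since they have 1 residual degree of freedom and the lone array of its group is assumed to vary like the others. The lowest adjusted p among the heat shock probe sets ran from 0.326, without non-deiminated replicate 1, to 1.00. The count of genes at least 2-fold higher on all bound arrays was 8, and was 8 without each bound array. It was 5 with the mean over all probe sets of a gene, 6 after cyclic loess, and 9 after hybridisation control scaling or without _s_at and _x_at probe sets. Shares of all genes under these settings are not given here, so the counts do not set these genes apart. Hybridisation control scaling put the median of all 18193 genes at 4.96, so a count of 9 there says nothing particular about heat shock genes. The inducible minus constitutive gap of 0.49 was 0.35 with the larger pseudocount, 1.80 after quantile normalisation, 0.87 after cyclic loess, 1.00 with the mean over all probe sets, 0.0864 without _s_at and _x_at probe sets, and 0.47 to 0.52 without each bound array. Deiminated minus non-deiminated values turned sign for Hsp90aa1 at -0.0338 after quantile normalisation and -0.0166 after cyclic loess, for Hspa8 at -0.0489 after cyclic loess and for Hspa5 at -0.0679 after quantile normalisation. Leaving out single bound arrays gave -0.0241 to 0.397 for Dnajb1, -0.15 to 0.28 for Hsph1, -0.27 to 0.39 for Hsp90aa1, -0.81 to 0.91 for Hspa8, -1.25 to 0.29 for Hspa4 and -0.12 to 0.24 for Hspa5. None of these was called, and the cause was not tested. No paired analysis was possible by replicate number because the labels give no shared replicate numbers. Paired instead by the protein name in the titles or by the control level, with 1 residual degree of freedom each, the fits called 0 of 27022, with 316 and 1005 at an unadjusted p under 0.05. The input side of every difference from input is 1 array.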
